A study of Mus musculus with 8 samples.

Results

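A set of 30 genes known from the endothelium of blood and lymphatic vessels was followed through RNA sequencing libraries of fibro/adipogenic progenitors (FAPs), connective tissue cells of skeletal muscle that are marked by Pdgfra. The 30 genes were taken by symbol and all 30 were found among the 37991 gene identifiers of the deposited files. Of these, 21 had a normalized read count of at least 10 in at least 3 libraries and were tested among 14768 genes. The other 9 (Cldn5, Sox17, Sox18, Robo4, Ushbp1, Gpihbp1, Lyve1, Nos3 and Tal1) were too low for the test and are described by their values.

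The 8 libraries came from FAPs purified from mouse tibialis anterior muscle 3 days after glycerol was injected to injure it, and all mice were of mixed background. The 5 FAP-ctrl libraries were from wild type muscle, and the 3 FAP-no cilia libraries from cells whose primary cilia had been removed through conditional deletion of floxed Ift88, a gene of the transport machinery that builds the cilium. The comparison of the groups asks which transcripts differ between FAPs with and without cilia. The sources used here do not give the Cre driver, the antibodies and gates of the sort, the age of the mice, any pooling, or whether libraries stem from separate animals. The p-values therefore rest on the spread between libraries alone, which may be technical. Sex genes, given below, showed both sexes within FAP-ctrl, so those libraries do not all stem from the same animal.

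Endothelial cells line the inside of every vessel and are held together by VE-cadherin (Cdh5), CD31 (Pecam1) and claudin-5 (Cldn5). They receive growth signals through the VEGF receptors (Kdr, Flt1) and angiopoietin signals through Tie2 (Tek), and ETS and SOX transcription factors (Erg, Fli1, Sox17, Sox18) maintain their identity. Some of the 30 genes are also known from other cells: blood cells carry Pecam1, Cd93, Fli1 and others of the set, and macrophages can carry Lyve1. Protocols that sort FAPs commonly use CD31 to remove endothelial cells.

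Promoters of 4 members are shown because the results turn on how these genes split: Flt1, Kdr and Emcn were all far higher in 1 library, while Tek, also a receptor known from endothelium, was not. Each line holds the 250 bases before the start of the gene, 5′ to 3′ on its own strand, from RefSeq (GRCm38.p6). Capitals mark matches, on either strand, to 4 short motifs. The cores of ETS factor sites were searched as AGGAAG and, with another letter at the start, as CGGAAG. The motif of GATA factors was AGATAA. The motif of SOX factors was AACAAT.
Flt1 (chr5:147726012-147726261, minus strand): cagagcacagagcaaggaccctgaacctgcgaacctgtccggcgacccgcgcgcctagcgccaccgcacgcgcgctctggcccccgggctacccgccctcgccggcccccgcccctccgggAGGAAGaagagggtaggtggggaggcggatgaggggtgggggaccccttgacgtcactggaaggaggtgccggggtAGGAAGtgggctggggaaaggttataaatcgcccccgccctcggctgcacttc
Kdr (chr5:75978456-75978705, minus strand): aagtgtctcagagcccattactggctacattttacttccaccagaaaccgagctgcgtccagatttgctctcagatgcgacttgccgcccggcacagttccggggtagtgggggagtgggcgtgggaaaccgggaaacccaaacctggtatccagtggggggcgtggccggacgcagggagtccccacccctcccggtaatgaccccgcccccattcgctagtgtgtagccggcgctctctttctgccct
Emcn (chr3:137340828-137341077, plus strand): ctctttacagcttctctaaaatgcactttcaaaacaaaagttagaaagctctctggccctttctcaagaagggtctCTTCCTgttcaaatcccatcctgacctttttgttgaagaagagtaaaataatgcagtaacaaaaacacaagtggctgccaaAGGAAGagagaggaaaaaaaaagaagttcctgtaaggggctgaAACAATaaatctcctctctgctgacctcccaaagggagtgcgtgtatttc
Tek (chr4:94739039-94739288, plus strand): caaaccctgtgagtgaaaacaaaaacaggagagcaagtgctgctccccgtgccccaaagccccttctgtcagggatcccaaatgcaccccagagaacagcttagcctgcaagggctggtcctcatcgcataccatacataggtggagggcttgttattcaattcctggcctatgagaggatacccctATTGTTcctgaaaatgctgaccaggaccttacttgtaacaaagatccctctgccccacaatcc
The Flt1 window held 2 matches to AGGAAG, that of Emcn 2 to AGGAAG and 1 to AACAAT, that of Tek 1 to AACAAT, and that of Kdr none of the 4 motifs. No marked match overlaps another. Among the promoters not shown, that of Egfl7, which was not far higher in that 1 library, held 3 matches to AGGAAG. That of Tie1, which was, held 1 match to AGGAAG and 1 to CGGAAG. The 4 shown were picked by hand, and whether motifs follow the split was not tested. A promoter was found for 13 of the 30 members, and 6 of these 13 held AGGAAG or CGGAAG, beside 39.2% of all 32851 promoters of this length. AACAAT was in 3 of 13 (9.42% of all promoters) and AGATAA in 1 of 13 (9.99%). These matches are letters in a window and nothing was measured at them.

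The libraries held 15.3 M (FAP-no cilia 2) to 43.9 M (FAP-ctrl 1) reads on genes, so 3 reads of a gene were worth 1.83 to 5.38 normalized reads, and values under that cannot be told from 0. Ift88, the deleted gene, had a mean of 527 ± 58.4 (SD) over the 5 FAP-ctrl libraries and of 243 ± 69.3 (SD) over the 3 FAP-no cilia libraries, and the groups did not overlap. Its highest FAP-no cilia value, 322, was in FAP-no cilia 3, the library that also stands apart below. Pdgfra lay between 33773 and 51005 in FAP-ctrl and between 39583 and 43349 in FAP-no cilia, so the FAP label holds by its marker in every library. Xist and Y-linked genes gave male for FAP-ctrl 1 and 2 and all FAP-no cilia libraries and female for FAP-ctrl 3 to 5.

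Some of the endothelial genes were far higher in FAP-no cilia 3 than in any other library and others were not, and no member separated the genotypes past the test. FAP-no cilia 3 was the highest of the 8 libraries for 16 of the 21 tested members, where it was highest for 11.2% of all genes tested, and for 23 of all 30. In 9 of the 21 it was at least 2 times as high as any other library, which held for 0.176% of all genes tested. These 9 were Pecam1, Cdh5, Kdr, Tie1, Emcn, Esam, Flt1, Ptprb and Mmrn2, and the low genes Sox17, Sox18, Robo4 and Gpihbp1 did the same on few reads. In no other library was any tested member at 2 times the next. The split into 9 and 12 was made after the values were seen and is a description. Just inside the line were Kdr, at 2.07 times the highest other library, and Flt1, at 2.43 times. Just outside it were Erg, at 1.77 times, and Plvap, at 1.69 times. In such bulk samples, more cells of a type and more RNA per cell cannot be told apart.

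**Figure D1:**
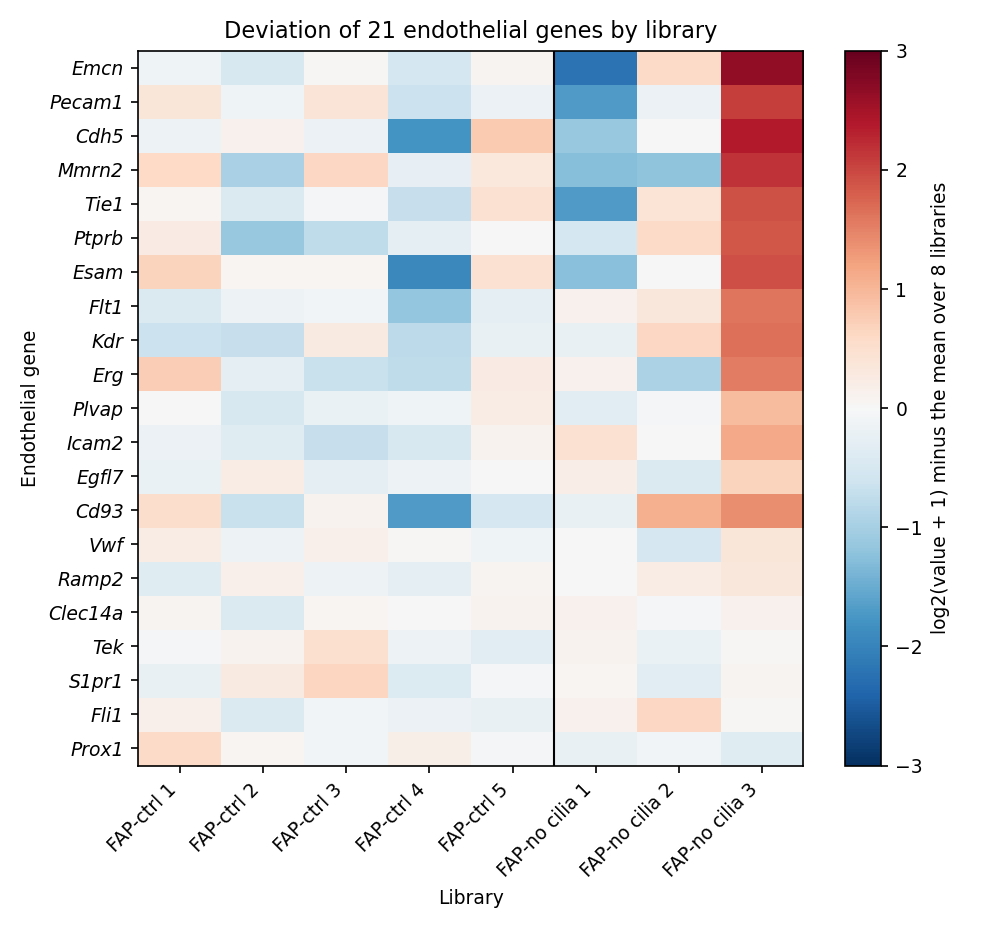
Deviation of log2(normalized read count + 1) from the gene's mean over the 8 libraries, for the 21 tested endothelial genes (rows) in each library (columns); red is above and blue below the mean, and the line parts the groups. The last column, FAP-no cilia 3, is red from Emcn to Cd93, while Clec14a, Tek, S1pr1 and Fli1 are near white there.

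Among the genes of the cell junctions and the cell surface, Cdh5, Pecam1, Emcn and Esam were far higher in FAP-no cilia 3. Cdh5 (ENSMUSG00000031871, chromosome 8, 104101625 to 104144511, GRCm38), the adhesion protein that defines endothelial junctions, had normalized read counts of 53.6, 65.4, 53.1, 16.5 and 103 in FAP-ctrl 1 to 5 and of 26.5, 59.1 and 317 in FAP-no cilia 1 to 3. The first 2 FAP-no cilia values lay inside the FAP-ctrl range. Pecam1 (chromosome 11, 106654217 to 106750628), which encodes the CD31 antigen, stood at 99.4, 69.7, 101, 48.6 and 67.4 in FAP-ctrl and at 22.7, 68.1 and 324 in FAP-no cilia. FAP-no cilia thus held both the lowest and the highest Pecam1 value of all libraries. Emcn (chromosome 3, 137341067 to 137432185), a sialomucin of capillaries and veins, stood at 14.0, 10.7, 15.8, 10.4 and 16.4 in FAP-ctrl and at 2.52, 23.3 and 102 in FAP-no cilia. FAP-no cilia 3 was 4.36 times the next library for Emcn, the largest such ratio among the 9 tested genes. Esam, an adhesion molecule of endothelial tight junctions, ranged from 4.34 to 31.7 in FAP-ctrl and stood at 7.57, 19.7 and 77.9 in FAP-no cilia. Icam2, a ligand for leukocyte integrins, was less far apart, with 7.45 to 13.7 in FAP-ctrl against 17.7, 12.5 and 28.9 in FAP-no cilia. Cldn5, a sealing protein of tight junctions, was at 0 in 5 libraries, at 0.911 in FAP-ctrl 5, at 4.27 in FAP-ctrl 1, and at 7.88 (9 reads) in FAP-no cilia 3.

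**Figure D2:**
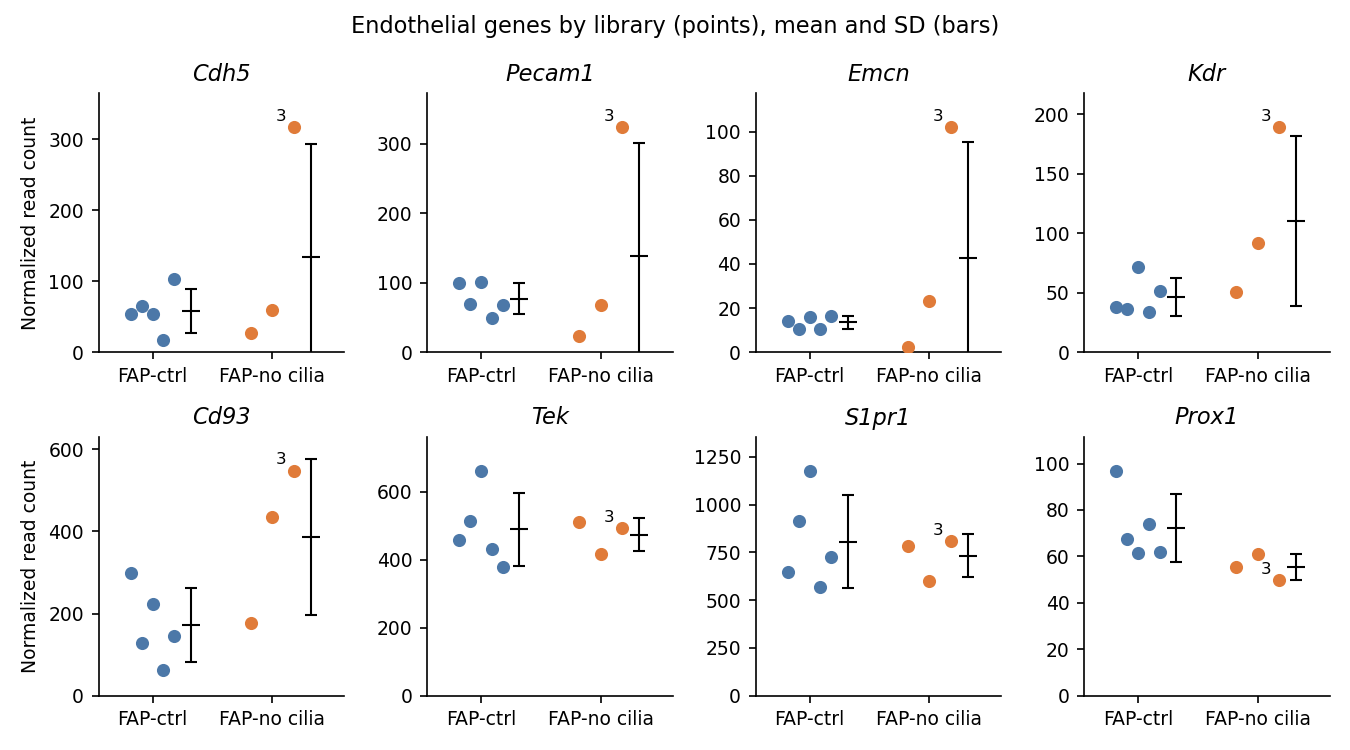
Normalized read counts of 8 endothelial genes in each library (points), with the group mean and SD (bars, cut at 0); the 3 marks FAP-no cilia 3. For Cdh5, Pecam1, Emcn and Kdr that library lies above all others, for Tek and S1pr1 it lies among them, and for Prox1 it is the lowest.

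The receptors divided in the same way, with both VEGF receptors on one side and Tek on the other. Kdr (chromosome 5, 75932827 to 75978458), the main signalling receptor for VEGF-A, stood at 37.8, 36.4, 71.7, 33.8 and 51.0 in FAP-ctrl and at 50.5, 91.4 and 189 in FAP-no cilia. Its FAP-no cilia 2 value was also above all 5 FAP-ctrl libraries. Flt1 (chromosome 5, 147561604 to 147726011), which binds VEGF-A, VEGF-B and placental growth factor, stood at 48.2, 58.9, 61.5, 28.6 and 53.8 and at 71.9, 82.4 and 201. Each FAP-no cilia library was above each FAP-ctrl library for Flt1, the only tested member with that order, which 3.62% of all genes tested showed. Tek (chromosome 4, 94739289 to 94874976), the angiopoietin receptor Tie2, stood at 459.6, 513, 662, 432 and 380.1 in FAP-ctrl and at 512, 418 and 493 in FAP-no cilia. The 3 FAP-no cilia values of Tek all lay inside the FAP-ctrl range. Tie1, the partner of Tie2, went with the other side, with 6.07 to 14.6 in FAP-ctrl against 2.52, 14.3 and 42.0 in FAP-no cilia. Ptprb, the phosphatase VE-PTP that acts on Tie2 and VE-cadherin, ranged from 21.4 to 57.3 in FAP-ctrl and stood at 32.8, 71.7 and 177 in FAP-no cilia. Robo4, an endothelial receptor of the roundabout family, was between 0 and 9.14 in the other 7 libraries and at 29.8 (34 reads) in FAP-no cilia 3.

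S1pr1 and Ramp2 were receptor genes without a high value of this kind in FAP-no cilia 3. S1pr1 (chromosome 3, 115710433 to 115715072), a receptor for sphingosine-1-phosphate, stood at 648, 913, 1177, 567 and 723 in FAP-ctrl and at 785, 602 and 809 in FAP-no cilia. Ramp2 (chromosome 11, 101246028 to 101259546), which turns the receptor Calcrl into a receptor for adrenomedullin, stood at 545, 775, 626, 573 and 748 and at 703, 823 and 888. Values of both genes overlapped between the groups. The Ramp2 locus overlaps the protein-coding gene Vps25 on the same strand. Mean normalized counts of Vps25 itself were low, 4.22 for FAP-ctrl libraries against 5.23 for FAP-no cilia libraries. Whether the Ramp2 counts hold reads of Vps25 was not tested. Calcrl itself, no member, was between 1811 and 3189 in FAP-ctrl and between 2631 and 3771 in FAP-no cilia.

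Of the transcription factors, Erg and Fli1 belong to the ETS family and differed in pattern. Erg (chromosome 16, 95359169 to 95586593), which is largely restricted to endothelium among vessel wall cells, stood at 31.1, 15.0, 11.2, 10.4 and 21.9 in FAP-ctrl and at 20.2, 8.96 and 55.2 in FAP-no cilia. Fli1 (chromosome 9, 32422204 to 32542861), also a factor of blood cells, stood at 233, 156, 199, 185 and 179.6 and at 229.6, 323 and 216. The highest Fli1 library was FAP-no cilia 2, not FAP-no cilia 3. Sox18, a factor of developing vessels, was at 4.56 to 9.32 in FAP-ctrl and at 1.26, 5.38 and 19.3 in FAP-no cilia. Sox17, a factor of arteries, was at or under 3.66 in the other 7 libraries and at 9.63 (11 reads) in FAP-no cilia 3. Tal1, a factor of blood and endothelial progenitors, did not go with them: it stood at 0 to 3.65 in all libraries and at 0.876 (1 read) in FAP-no cilia 3.

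Secreted and matrix genes were mixed. Vwf (chromosome 6, 125546774 to 125686679), the clotting factor stored in endothelial cells, stood at 36.6, 27.9, 34.5, 32.1 and 28.3 in FAP-ctrl and at 31.5, 21.5 and 40.3 in FAP-no cilia, with the lowest spread of all tested members in FAP-ctrl (a coefficient of variation of 12%). Mmrn2, a matrix protein of the vessel wall that binds Clec14a and Cd93, stood at 21.3, 6.43, 21.4, 11.3 and 17.3 and at 5.05, 5.38 and 64.8. Its 2 lowest libraries and its highest were thus all FAP-no cilia. Egfl7, a secreted factor of endothelial cells, was at 46.6 to 65.4 in FAP-ctrl and at 64.3, 41.2 and 90.2 in FAP-no cilia. The Egfl7 locus overlaps Agpat2 on the opposite strand, and the sources used here do not give the strand setting of the counting.

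The 2 C-type lectin-like partners of Mmrn2 differed in pattern. Clec14a (chromosome 12, 58264720 to 58269290) was at 502, 350.4, 492, 479.9 and 509 in FAP-ctrl and at 517, 455 and 516 in FAP-no cilia. Cd93 (chromosome 2, 148436640 to 148443563), which myeloid cells carry as well, was at 298, 129, 223, 63.4 and 145 and at 177, 436 and 548. Cd93 was high in FAP-no cilia 2 and 3, and FAP-no cilia 2 was also the library with the highest leukocyte markers. The part of leukocytes in the Cd93 values was not tested.

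Genes of capillary exchange and tone were low. Plvap, which forms the diaphragms of fenestrae and caveolae, was at 18.2 to 30.1 in FAP-ctrl and at 20.2, 25.1 and 50.8 in FAP-no cilia, and it overlaps Gtpbp3 on the opposite strand. Gpihbp1, which carries lipoprotein lipase to the capillary surface, had 1, 2, 2, 1 and 4 reads in FAP-ctrl against 1, 3 and 41 reads in FAP-no cilia. Most Gpihbp1 reads were therefore from FAP-no cilia 3. Nos3, the endothelial nitric oxide synthase, had at most 5 reads in the other 7 libraries and 10 reads in FAP-no cilia 3, and Ushbp1 at most 8 and 10 reads.

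The lymphatic genes Prox1 and Lyve1 did not share the high values of FAP-no cilia 3. Prox1 (chromosome 1, 190118035 to 190170714), the master factor of lymphatic endothelium, stood at 96.9, 67.5, 61.5, 73.8 and 62.0 in FAP-ctrl and at 55.5, 60.9 and 49.9 in FAP-no cilia. Each FAP-no cilia library was lower than each FAP-ctrl library, an order that 3.69% of all genes tested showed, but the gap was small, between 60.9 and 61.5. Lyve1, a hyaluronan receptor of lymphatic vessels and macrophages, stood at 19.5, 7.50, 8.39, 4.34 and 9.11 and at 6.31, 19.7 and 7.88. Its highest values were in FAP-ctrl 1 and FAP-no cilia 2, the 2 libraries with the highest summed leukocyte markers.

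Each gene's level per kilobase of exon was set against that of Pdgfra in the same library. Only for genes that FAPs do not express does this measure how much endothelial RNA a library could carry. Whether FAPs express any of the members themselves was not tested. Over FAP-ctrl, 5 members exceeded 1% of Pdgfra: S1pr1 at 6.14% ± 1.46, Ramp2 at 4.72% ± 1.28, Clec14a at 2.43% ± 0.642, Tek at 2.41% ± 0.309 and Fli1 at 1.30% ± 0.319 (SD, n = 5). The gap between S1pr1 and Ramp2 was under the SD of S1pr1 but over that of Ramp2. Clec14a and Tek were within 1 SD of each other. The defining junction genes were well under these, with Cdh5 at 0.347% ± 0.237, Pecam1 at 0.293% ± 0.094 and Emcn at 0.0598% ± 0.0201 of Pdgfra. In FAP-no cilia 3, Cdh5 was at 1.77%, Pecam1 at 1.22% and Emcn at 0.441%, while S1pr1 was at 6.24% and Tek at 2.46%. The 5 members above 1% were thus between their lowest and highest other libraries in FAP-no cilia 3. Over FAP-ctrl the 9 genes of the high group spanned 0.0493% (Tie1) to 0.347% (Cdh5) of Pdgfra and the other 12 tested genes 0.0468% (Vwf) to 6.14% (S1pr1), so the levels of both groups overlapped at the low end. Exon lengths are those of the annotation and not of the transcripts in these cells. The level of Ramp2 may also include reads of Vps25, which it overlaps on the same strand.

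**Figure D3:**
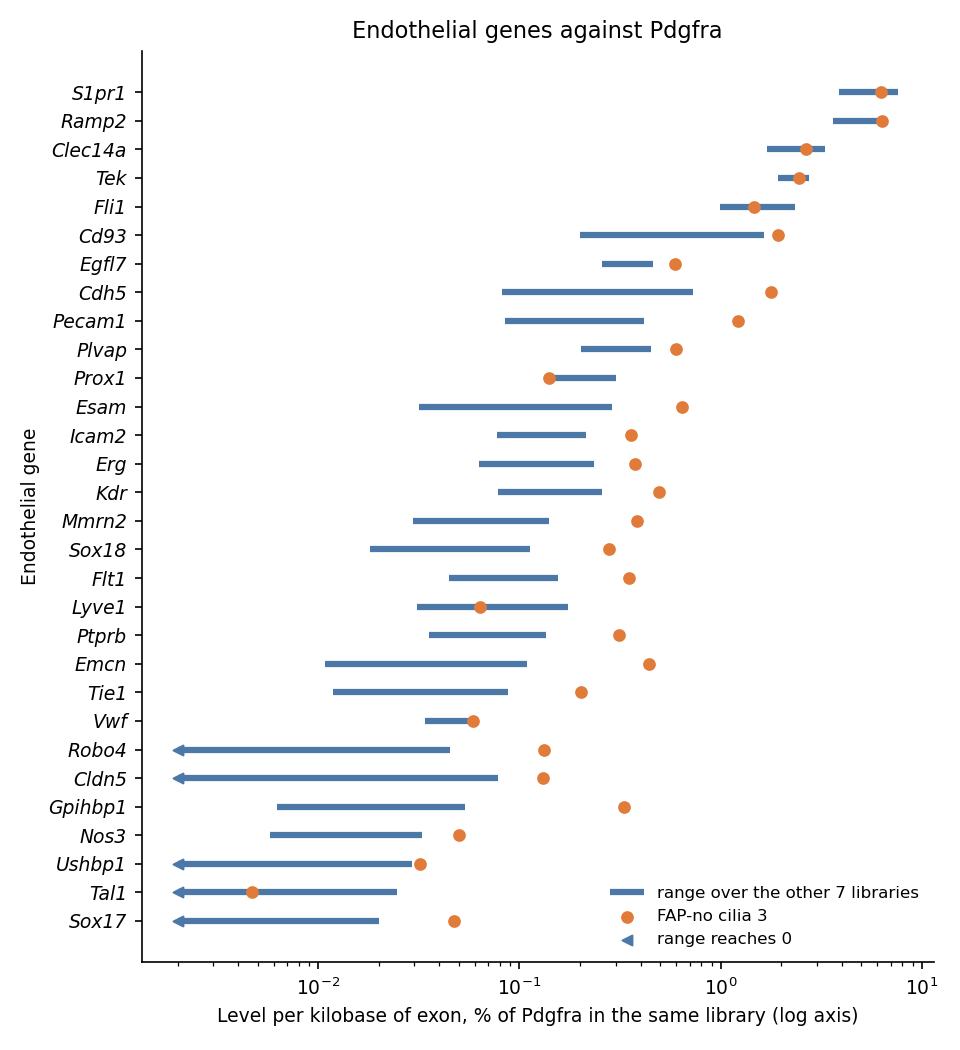
Level per kilobase of exon as a percentage of Pdgfra in the same library (log axis) for the 30 endothelial genes. Blue bars span the other 7 libraries, with an arrow where the range reaches 0, and orange points are FAP-no cilia 3. The points lie on the bars for S1pr1, Ramp2, Clec14a, Tek and Fli1 and to their right for Cdh5 (1.77%), Pecam1 (1.22%) and Emcn (0.441%).

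The 9 genes did not all follow the same order in the libraries other than FAP-no cilia 3: in FAP-no cilia 1, Pecam1, Tie1, Emcn and Mmrn2 were at their lowest while Flt1 was above every FAP-ctrl library. The median log2 deviation of the 9 from the gene mean was 0.07, -0.43, 0.04, -0.69 and 0.09 in FAP-ctrl 1 to 5 and -1.26, 0.34 and 1.94 in FAP-no cilia 1 to 3. The lowest library was FAP-ctrl 4 or FAP-no cilia 1 for 8 of the 9. Across the 7 libraries without FAP-no cilia 3 the median Pearson r over their 36 pairs was 0.42, with 32 pairs above 0, and with all 8 libraries it was 0.77, which the choice of the 9 genes partly sets. The 66 pairs of the other 12 tested genes had medians of 0.08 and 0.15. These correlations describe 7 or 8 libraries that all genes share, with their depth and size factors. The summed normalized reads of the 9 were 374, 297, 383, 199.6 and 399 in FAP-ctrl against 222, 436 and 1494 in FAP-no cilia, and those of the other 12 were 2498 to 3563 and 3132, 3226 and 3786.

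Between the groups, no endothelial gene passed the threshold of an adjusted p of 0.05 in limma-trend, where 1 gene of all tested (0.00677%) passed. The same held for edgeR, which called 0 genes of all (0.0%), and for DESeq2, which called 177 (1.2%) and none of the 21 members. Ift88, the deleted gene, also missed the threshold in limma-trend (adjusted p = 0.0895) and edgeR (adjusted p = 0.0981). It passed in DESeq2 (adjusted p = 6.6e-06). A member that did not pass is therefore not shown to be unchanged. The smallest adjusted p of any member was 0.327 in limma-trend and 0.0646 over all 18 other settings, both for Flt1. At an unadjusted p under 0.05 there were 5 members in limma-trend (10.8% of all genes tested), 6 in edgeR (10%) and 7 in DESeq2 (10.8%). The 5 in limma-trend were Flt1, Kdr, Cd93, Fli1 and Icam2.

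The largest log2 differences, FAP-no cilia minus FAP-ctrl, were those of Cd93 at 1.20 ± 0.49 (SE, limma-trend adjusted p = 0.425), Flt1 at 1.11 ± 0.36, Kdr at 1.09 ± 0.40 (adjusted p = 0.38) and Ptprb at 1.01 ± 0.50 (adjusted p = 0.503). Without FAP-no cilia 3 these were 0.87, 0.65, 0.60 and 0.39. Cdh5 had a difference of 0.65 ± 0.75, Emcn of 0.53 ± 0.85 and Pecam1 of 0.10 ± 0.66 (SE). Without FAP-no cilia 3 they turned to -0.34, -0.62 and -0.90. In each of the 3 the SE exceeded the difference, and FAP-no cilia 3 was over 3 times the next library. For genes without such a high value the errors were smaller: Tek had -0.03 ± 0.17, Clec14a 0.10 ± 0.14, S1pr1 -0.10 ± 0.22, Ramp2 0.31 ± 0.14 and Fli1 0.41 ± 0.17 (SE). Prox1 had -0.36 ± 0.21 (SE, limma-trend adjusted p = 0.564).

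Over the 21 tested members the median log2 difference was 0.34, with 16 higher and 5 lower, beside a median of 0.008 over all genes tested, with 7610 higher and 7158 lower. Without FAP-no cilia 3 the members had a median of -0.07, 8 being higher and 13 lower, and 8 genes turned from higher to lower: Cdh5, Emcn, Pecam1, Esam, Tie1, Erg, Egfl7 and Plvap. Fitted on the recovered reads the median was 0.76 in edgeR and 0.71 in DESeq2. With sex as a covariate, which leaves the male libraries to set the genotype difference, the median was 0.30, with 15 higher and 6 lower.

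**Figure D4:**
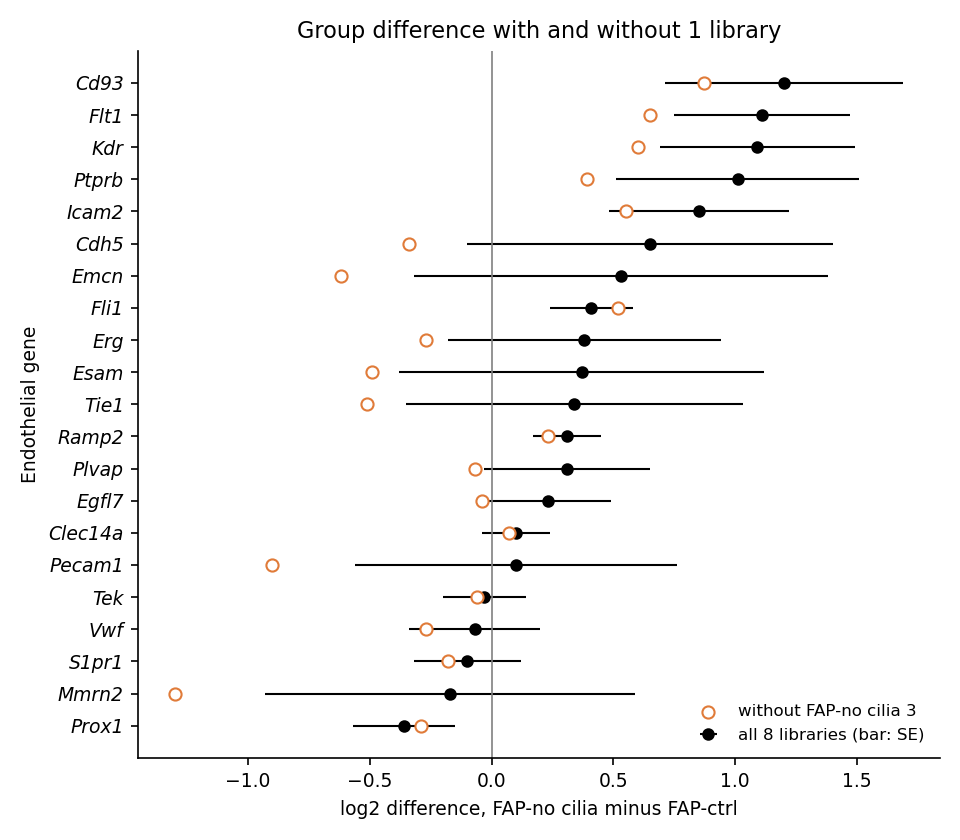
Log2 difference, FAP-no cilia minus FAP-ctrl, on the log2(normalized read count + 1) scale for the 21 tested endothelial genes, with all 8 libraries (filled points, bars of 1 SE) and without FAP-no cilia 3 (open circles). The open circles of Cdh5, Emcn and Pecam1 lie left of 0, at -0.34, -0.62 and -0.90, and those of Cd93, Flt1 and Kdr stay right of it.

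The summed level of the 30 members was 3350.5 ± 447 (SD, n = 5) in FAP-ctrl against 3368, 3697 and 5408 in FAP-no cilia 1 to 3. The 6 members of highest FAP-ctrl mean (S1pr1, Ramp2, Tek, Clec14a, Fli1 and Cd93) held 79.9 to 86.8% of the sum in the other 7 libraries and 64.2% in FAP-no cilia 3. The log2 ratio of the group means was 0.31, and 0.08 without FAP-no cilia 3. Without the 6 genes, a choice made after seeing the data, the sum was 413 to 675 in the other 7 libraries and 1938 in FAP-no cilia 3, and the ratio was 0.81, or -0.08 without that library. Divided by Pdgfra of the same library, the sum of all 30 was 5.66 to 9.88% in FAP-ctrl against 7.77, 9.34 and 12.7% in FAP-no cilia. These percentages are of normalized reads without scaling to exon length. They cannot be set beside the percentages per kilobase given above. Leaving out members that blood cells also express kept 19 genes. These summed to 1535 ± 141 (SD, n = 5) in FAP-ctrl and to 1563, 1774 and 2843 in FAP-no cilia 1 to 3.

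Over all genes tested, 26 were at least 2 times as high in FAP-no cilia 3 as in any other library, and 9 of the 26 were the members above. The other 17, named after their values were seen, included 3 from the lists of other endothelial genes: Podxl, a sialomucin of vessels and podocytes (188, and 1.26 to 50.6 in the other 7), Cyyr1 (70.1, and 3.47 to 21.3) and Rasip1, a regulator of vessel lumens (38.5, and 4.66 to 17.1). Edn1, the vasoconstrictor endothelin-1, was at 67.4 and at 5.59 to 28.3 in the other 7. Rgs5, a gene of pericytes, was at 838 and at 25.2 to 166. Hspa1a and Hspa1b, nearly identical genes of an inducible heat shock protein whose reads may not be separable, were also among the 17. The rest of the 17 were Gimap4, Clic5, Rapgef5, Mmp13, Ifi214, the pseudogene Gm11977, Rslcan18, Palmd, F11r and Zfp984. None of these was in a list used here. Hspa1a stood at 1153, 919, 1098, 555 and 4430.5 in FAP-ctrl and at 1499.7, 1391 and 9196 in FAP-no cilia. FAP-ctrl 5, the next highest library for Hspa1a, had a median deviation of 0.01 over the 21 endothelial genes and of 0.09 over the 9. The sum of the 9 there, 399, was the highest in FAP-ctrl. Whether the heat shock genes and the endothelial genes are linked was not tested. The depth of FAP-no cilia 3, 29.5 M reads, was inside the range of the others. Other libraries also held genes at least 2 times as high as elsewhere. There were 61 in FAP-ctrl 3, 52 in FAP-no cilia 2 and 31 in FAP-no cilia 1. FAP-ctrl 1, 2, 4 and 5 had 2 to 13, so the count of 26 was inside the range of the others.

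Of 60 other endothelial genes listed by vessel type, 59 were found and 50 tested, with 33 higher and 17 lower in FAP-no cilia and a median log2 difference of 0.12. Without FAP-no cilia 3 25 were higher, 25 lower, and the median was 0.01. No gene of these lists passed in limma-trend or edgeR. At an unadjusted p under 0.05 there were 8 and 7 of the 50, beside 10.8% and 10% of all genes tested. In DESeq2 2 of the 50 passed, beside 1.2% of all genes tested. DESeq2 called Car4, a carbonic anhydrase of capillaries, at 74.5 to 142 in FAP-ctrl against 352, 199 and 197 in FAP-no cilia (adjusted p = 0.00245; limma-trend adjusted p = 0.177). It also called Aqp1, a water channel, at 652 to 1304 and 441, 461 and 616 (adjusted p = 0.0436; limma-trend adjusted p = 0.254). For neither was FAP-no cilia 3 the highest library.

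Of the general endothelial list, 18 of 24 genes were tested, with 13 higher, 5 lower and a median of 0.13, or 0.04 without FAP-no cilia 3. Several were abundant in every library: Tm4sf1 was at 3588 to 5081, Eng, a co-receptor of the TGF-beta family, at 1777 to 3176, and Cavin2, a caveolar coat protein, at 838 to 1139. Muscle capillary genes had 6 higher and 3 lower of 9, with a median of 0.08, arterial genes 4 and 2 of 6, with 0.08, and venous genes 3 and 4 of 7, with -0.08. Without FAP-no cilia 3, muscle capillary genes had 3 higher and 6 lower, with a median of -0.02, arterial genes 3 and 3, with -0.09, and venous genes 3 and 4, with -0.02. Tip cell genes, known from sprouting vessels, were 6 higher of 6, with a median of 0.47, and 5 higher and 1 lower without FAP-no cilia 3, with a median of 0.62. Among them was Apln, the ligand of the apelin receptor, at 1298 to 2216 in FAP-ctrl against 2506, 2437 and 1775 in FAP-no cilia. Lymphatic genes had 1 higher and 3 lower of 4, with a median of -0.32, and -0.49 without FAP-no cilia 3. Pdpn, a lymphatic gene that FAPs and other fibroblasts also express, was the higher one, at 5078 to 7122 and at 10595, 8760.3 and 6361.

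**Figure D5:**
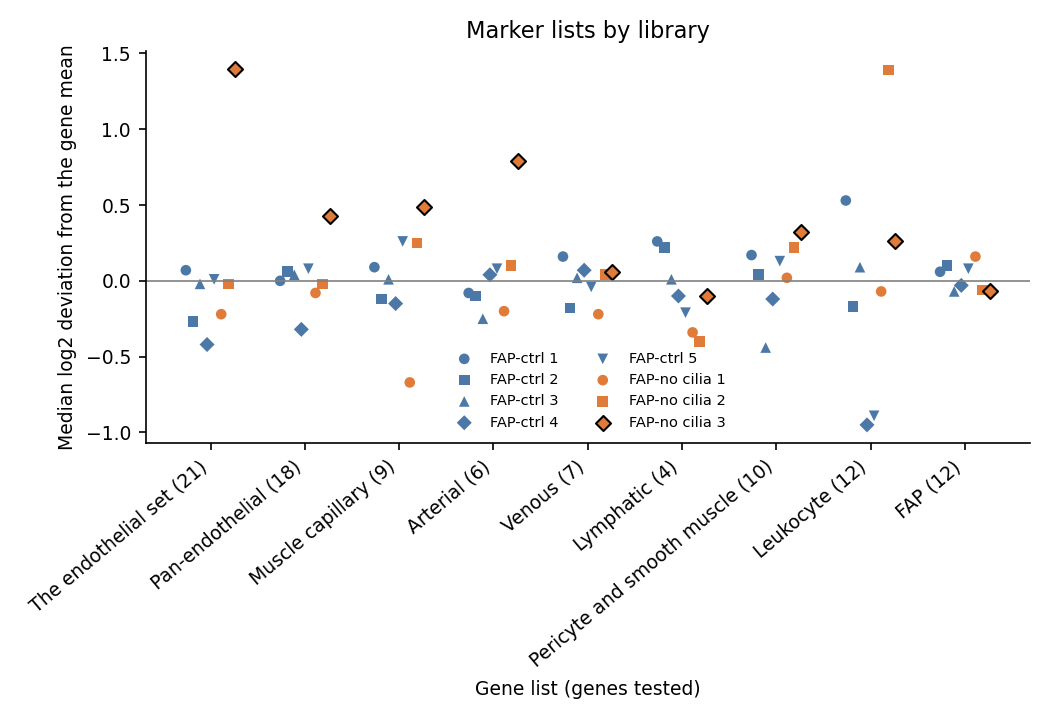
Median log2 deviation from the gene mean in each library for lists of marker genes (number tested in parentheses); shapes mark libraries and colours the groups. FAP-no cilia 3 (outlined diamond) is at 1.40 for the 21 endothelial members, 0.79 for arterial, 0.43 for general endothelial, 0.06 for venous and -0.10 for lymphatic genes, and FAP-no cilia 2 leads the leukocyte genes at 1.39.

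Markers of other cells were read in the same libraries. FAP markers, 12 of 12 tested, summed to 742997 to 978239 in FAP-ctrl against 835088 to 962104 in FAP-no cilia, with a median deviation of -0.07 in FAP-no cilia 3. Pericyte and smooth muscle markers, 10 of 12 tested, summed to 4825 to 7475 and to 6993 to 8869.8, and FAP-no cilia 3 was the lowest of its group at 6993. By the median deviation of the list, 0.32, FAP-no cilia 3 was the highest of the 8 libraries, and 4 of the 10 tested genes (Rgs5, Abcc9, Myh11 and Mcam) were highest there. Some other genes of the list are named here, chosen after their values were seen. Higd1b (0.876) and Cspg4 (294) were low or inside the range of the other libraries in FAP-no cilia 3. Kcnj8 was low too, but at 8.76 it was also highest there, being at most 8.57 elsewhere. Kcnj8 and Higd1b were both at 0 in FAP-no cilia 1 and 2. Leukocyte markers, 12 of 12 tested and none at 0, summed to 812 to 2194 in FAP-ctrl. In FAP-no cilia they summed to 1515, 3932 and 1669, so FAP-no cilia 3 was inside the FAP-ctrl range. Of these 12 markers, 10 were higher and 2 lower in FAP-no cilia, and none passed in limma-trend, edgeR or DESeq2. Their median log2 difference was 0.80, and 1.04 without FAP-no cilia 3. Erythroid markers summed to 8.2 in FAP-ctrl 5 and to 11.4 in FAP-no cilia 3, and to 30.3 to 266 in the other 6 libraries. The part of pericytes, blood cells and the heat shock genes in the endothelial values was not tested.

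Ligands of the members' receptors were higher in 9 and lower in 2 of 11 tested genes, with a median log2 difference of 0.43, and 0.47 without FAP-no cilia 3. None passed in limma-trend or edgeR, with 7 and 6 at an unadjusted p under 0.05, beside 10.8% and 10% of all genes tested. Angpt4, a ligand of Tie2, stood at 51.8, 55.7, 27.0, 41.7 and 61.1 in FAP-ctrl and at 183, 208 and 178 in FAP-no cilia, or 2.02 ± 0.26 (SE) higher on the log2 scale (limma-trend adjusted p = 0.0895; DESeq2 adjusted p = 2.1e-11). FAP-no cilia 3 was the lowest of its group for Angpt4. Angpt1, the main ligand of Tie2, was at 3944 to 5675 and at 5259, 4584 and 5642. Vegfa, the ligand of Kdr and Flt1, was at 2831 to 3799 and at 6276, 5199 and 2996, lowest of its group in FAP-no cilia 3, where both receptors were highest. Pgf, the placental growth factor bound by Flt1, was at 14.8 to 48.3 and at 119, 59.1 and 54.3, and Vegfb at 159 to 221 and at 233, 285 and 237. Angpt4, Pgf and Vegfb were the 3 ligands whose groups did not overlap, all higher in FAP-no cilia, as 3.62% of all genes tested were.

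Among 12190 protein-coding genes with a mean of at least 20, those whose log2 values followed the log2 summed level of the 30 members most closely were Fbxo48 (Pearson r = 0.976 over 8 libraries and 0.94 over 7 without FAP-no cilia 3), Amotl2 (0.960 and 0.87), Mettl25 (0.959 and 0.87) and Cnr1 (0.957 and 0.88). Next were Atg12, Foxo1, C2, Slc12a7, Dusp6, Cyyr1, Unc50 and Dus4l, the last at 0.921. Of these 12 genes only Cyyr1 was in a list of endothelial genes, at 0.926 and 0.80. The summed level rests mostly on S1pr1, Ramp2, Tek, Clec14a, Fli1 and Cd93. These genes held 79.9 to 86.8% of it in the libraries other than FAP-no cilia 3. When Cdh5 alone was followed instead, none of the 12 closest genes outside the set was in a list of endothelial genes. The measure reads the order and spacing of the libraries and not the size of a change, and it was not tested.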

How the data were processed

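RNA of sorted mouse FAPs was sequenced as stranded total RNA (single end, 50 bases), per the labels. The deposited signal per gene is a read count that the authors normalized with DESeq after alignment with STAR to GRCm38, per the series' design text and the submitters' processing notes. Counter, strand setting and annotation release are not stated in them. All values were whole reads within 0.01 reads (100%), with 223 M reads in all; edgeR and DESeq2 were run on those reads as alternatives. In the chi-square check no replicate pair agreed within sampling noise.

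Genes with at least 10 in at least 3 libraries were compared by limma-trend on log2(value + 1), genotype only, with Benjamini-Hochberg adjustment over all genes at 0.05; fold changes on this scale understate those of low genes. No set was tested. Names and coordinates are from GENCODE (GRCm38; 32938 of 37991 identifiers matched). The scripts were tested on simulated data. The tools were limma 3.58.1, DESeq2 1.42.0 and edgeR 4.0.16 in R 4.3.3, and Python 3.11.15.

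The members and lists were chosen with earlier results of these data known. Named genes are the 30 members, Ift88, Pdgfra, the 12 non-member genes that follow the summed level most closely, and up to 4 genes of highest mean, or called by a tool, per list. Others were chosen after their values were seen. Alternatives were other pseudocounts, filters, tools, a replicate block, sex and leaving out each library.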

Additional observations from a re-analysis of the deposited data

Results flagged for a closer look

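Of 33 sets of 5 FAP-ctrl values examined (the 30 members, Pdgfra, Ift88 and the summed level), 2 held a library far from the other 4, where chance alone flags about 1 in 20. For Cldn5, FAP-ctrl 1 was at 4.27 normalized reads, or 7 reads, while FAP-ctrl 5 had 1 read and FAP-ctrl 2 to 4 had none. For Clec14a, FAP-ctrl 2 was at 350.4, below 479.9 to 509 in the other 4. Groups of 3 libraries are not examined in this way, so the high values of FAP-no cilia 3 are outside it.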

How the results depend on the processing

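Over all genes the count past the threshold was 1 in limma-trend, 0 in edgeR with TMM or RLE factors, 177 in DESeq2 and 0 with the replicate block, and 1 to 3 when a library was left out; the cause was not tested. The number of endothelial members called was 0 in each of the 18 other settings. The log2 ratio of the summed level was 0.31 in the report, 0.24 to 0.42 under the 4 planned scalings, 0.08 to 0.44 when a library was left out, and 0.81 without the 6 members of highest FAP-ctrl mean.

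Signs turned for 13 members, and the cause was not tested. With quality weights in limma-voom, Pecam1 was at -0.15 and Tek and S1pr1 at 0.015. With sex as a covariate, Pecam1 was at -0.055, Esam at -0.13 and Mmrn2 at 0.082, and Mmrn2 was at 0.76, 0.77 and 0.71 in edgeR with TMM, edgeR with RLE and DESeq2. With the replicate block, Pecam1 was at -0.15 and Esam at -0.033. When a library was left out, the differences ranged from -0.90 to 0.99 for Pecam1, -0.34 to 1.43 for Cdh5, -0.11 to 0.09 for Tek, -0.51 to 1.29 for Tie1, -0.27 to 0.17 for Vwf, -0.62 to 1.81 for Emcn, -0.038 to 0.52 for Egfl7, -0.49 to 1.11 for Esam, -0.27 to 0.98 for Erg, -1.30 to 0.42 for Mmrn2, -0.074 to 0.57 for Plvap, -0.0012 to 0.16 for Clec14a and -0.21 to 0.049 for S1pr1. Kdr, Flt1, Ptprb, Prox1, Icam2, Cd93, Ramp2 and Fli1 kept their sign in all settings run.

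Libraries of both groups share the numbers 1 to 3, but deviations of same-numbered libraries from their group means correlated at -0.0704, 0.135 and 0.0358, and the labels do not say that a number marks a pair. The block used libraries 1 to 3 of each group. Of the 9 members whose level was too low for the test, 7 had at most 11 reads in every library but FAP-no cilia 3.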
